A study of Homo sapiens and Mus musculus with 30 samples.

Results

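2′-O-methylation of 5.8S ribosomal RNA was followed at its known sites, 5.8S-Um14 (a methylated uridine) and 5.8S-Gm75 (a methylated guanosine), called Um14 and Gm75 here, in mouse brain and in human pluripotent cells and their derivatives. The 2 sites were taken from a catalogue of 107 known rRNA methylation sites, of which 41 lie in 18S and 64 in 28S rRNA, and were located by their published number and by the base given in the files. The measurements came from RiboMeth-seq, in which RNA is broken by alkali and the 5′ and 3′ ends of the fragments are counted at every nucleotide. A ribose methyl group protects the bond next to it, so a methylated nucleotide carries fewer read ends than its neighbours. The score runs from 0, where the site has at least as many ends as its neighbours, to 1, where it has none.

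The mouse samples were all labelled wild type. They were cortex at the embryonic stages E11, E12.5, E14, E15.5 and E17, named by embryonic day, at birth (P0) and in the adult, hippocampus, cerebellum and olfactory bulb at P0 and in the adult, and embryonic stem cells of the line TCF2.2. The human samples came from 3 pluripotent lines, KOLF2 (induced pluripotent) and HUES4 and H9 (embryonic stem cells). Each line was profiled before differentiation and as endoderm and mesoderm made with a directed protocol. From H9 there were also neural precursors of an early and a late stage, and mature neurons. The edited samples were 2 H9 lines labelled as CRISPR-Cas9 knock-outs of SNORD52 and 2 labelled as carrying a constitutive SNORD52 transgene, all called clones here. Each of the 14 mouse and 16 human samples had 3 libraries, except undifferentiated H9 with 6, which gave 42 mouse and 51 human libraries. The series text calls the triplicates biological. Where a sample's libraries are the replicates, p-values measure the spread between those libraries. Tissues were not separated by cell type and the files hold no marker of one, so a change within cells and a change in the mix of cells cannot be told apart.

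5.8S rRNA belongs to the large ribosomal subunit, where it pairs with 28S rRNA. Its methyl groups are added by fibrillarin, the methyltransferase of box C/D small nucleolar ribonucleoproteins, and the small nucleolar RNA (snoRNA) in each particle selects the nucleotide by base pairing. SNORD71 is the known guide of Um14, and SNORD96A and SNORD96B are those of Gm75. Um14 has long been known as a site that is only partly methylated. SNORD52, the snoRNA edited in this study, guides 28S Um3904 and is the guide of neither 5.8S site.

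The 5.8S sequence is printed because the position of each site within it decides which read ends can inform its score. The human files spelled out 154 nucleotides and the mouse files 156, and the 2 sequences had 0 differences over the 154 positions compared. The methylated nucleotides are in capitals, and the 13 nucleotides of each score window (the site with 6 neighbours on each side) follow the whole.
5.8S rRNA: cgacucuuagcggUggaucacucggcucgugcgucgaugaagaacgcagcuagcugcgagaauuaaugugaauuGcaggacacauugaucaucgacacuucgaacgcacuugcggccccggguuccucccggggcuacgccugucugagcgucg
Um14 window: uagcggUggauca
Gm75 window: ugaauuGcaggac

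Um14 lies so near the 5′ end that its own count came from 5′ read ends alone, while the mean of its neighbours also held 3′ ends. Fragments of 20 to 40 nucleotides were purified, and no library of the 93 had a 3′ end at positions 1 to 14, the first appearing at position 15. In the Um14 window, positions 8 to 20, 3′ ends made up 5.85% of the read ends in human and 7.49% in mouse. In the Gm75 window, positions 69 to 81, they made up 59.3% and 53.4%. The 3′ ends among the neighbours raise the Um14 score in libraries that hold many of them. Scored from 5′ ends alone, the Um14 mean went from 0.0649 to 0 in undifferentiated KOLF2 cells, from 0.195 to 0.0977 in E14 cortex and from 0.297 to 0.17 in a SNORD52 overexpression clone, but stayed at 0.264 in undifferentiated H9.

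**Figure D1:**
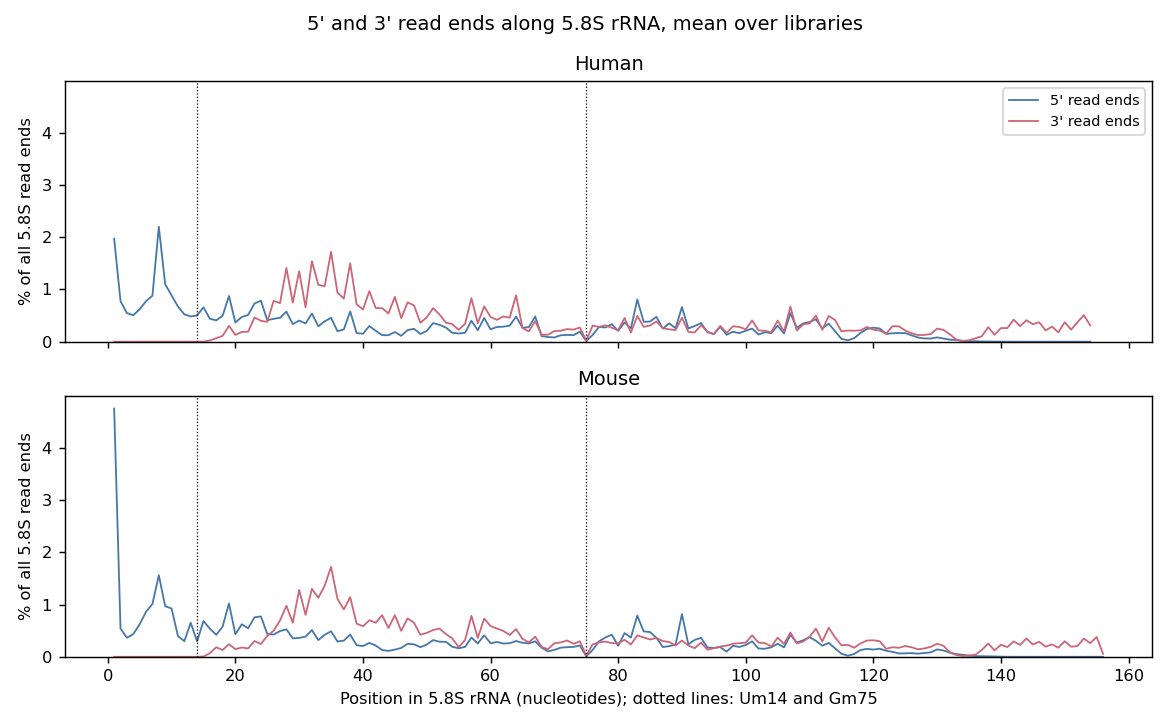
Percentage of all 5.8S read ends found at each position of 5.8S rRNA (x axis, nucleotides from the 5′ end), as the mean over the 51 human and the 42 mouse libraries, with 5′ ends in blue and 3′ ends in red. No 3′ ends lie at or before Um14, while Gm75 shows a sharp minimum of both kinds.

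Coverage varied between libraries. They held 1536440 to 41455445 read ends on 18S, 28S and 5.8S rRNA in mouse and 1997206 to 40895844 in human, of which 1.7% to 4.2% and 2.27% to 5.62% lay on 5.8S. Um14 itself carried 115 to 8232 read ends per library and Gm75 14 to 688. Counting alone gave a score a median error of 0.0132 at Um14 and 0.00566 at Gm75, against a median SD between the libraries of a sample of 0.0447 and 0.0197. At each site it was at least as large as the SD in 3 of the 30 samples. Read ends were counted without molecular identifiers, so the counting error covers counting only. The column headers give each library a short index from 1 of 2 sets, and a code shared by several libraries whose meaning is not stated.

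The 2 sites covered very different ranges over the samples. Sample means of Um14 ran from 0.0024 in E12.5 cortex to 0.939 in adult hippocampus in mouse, and from 0 to 0.744 in human. This range was the second widest of the 107 sites in mouse and the third widest in human. Sample means of Gm75 ran from 0.869 in E11 cortex to 0.975 in adult cortex, and from 0.874 in undifferentiated HUES4 to 0.96 in a SNORD52 knock-out clone. These ranges of 0.107 and 0.0861 compare with medians over the sites of 0.164 in mouse and 0.107 in human. Ranked by mean, all 13 neighbouring pairs of mouse samples and all 15 of human samples overlapped in their libraries for Gm75. For Um14, 7 of 13 and 13 of 15 did. The rank lists therefore order the samples at Um14 in a few broad steps and give no order between neighbours at Gm75.

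**Figure D2:**
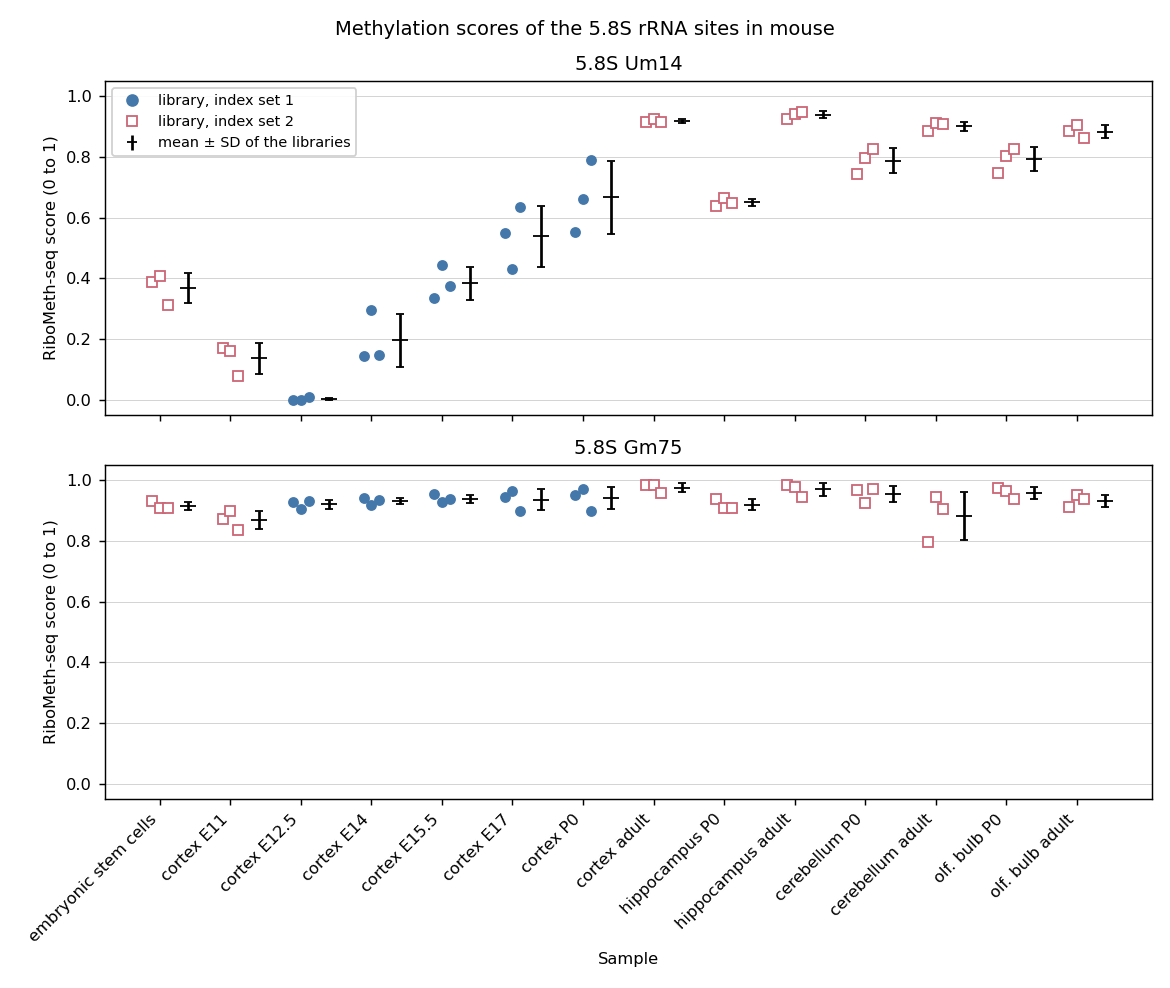
RiboMeth-seq score (y axis, 0 to 1) of Um14 (top) and Gm75 (bottom) in every mouse library, by sample, with filled circles for the first and open squares for the second set of library indexes and bars for the mean ± SD of 3 libraries. Um14 climbs from 0.0024 at E12.5 to 0.919 in adult cortex, while all Gm75 libraries lie between 0.795 and 0.984.

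The cortex series asks how the sites change as the cortex forms and matures. Um14 rose through development, from almost no protection to nearly full protection. At E11 its 3 libraries scored 0.078, 0.161 and 0.17. At E12.5 they scored 0, 0 and 0.00721, at E14 0.145, 0.146 and 0.296, and at E15.5 0.334, 0.375 and 0.442. At E17 they scored 0.432, 0.549 and 0.634, at P0 0.551, 0.66 and 0.79, and in the adult 0.914, 0.916 and 0.926. From E12.5 on the means went up at every step, to 0.195 ± 0.0869, 0.384 ± 0.0544, 0.538 ± 0.101, 0.667 ± 0.12 and 0.919 ± 0.00626 (SD, n = 3 libraries each). Libraries of E11 lay above those of E12.5, but these stages differ in index set and header code, and with 2 neighbours on each side E11 scored 0 and E12.5 0.0112. Libraries of E15.5 and E17 and of E17 and P0 overlapped, and the adult libraries stood above all others.

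The slope of Um14 over the 7 ordered stages was 0.144 ± 0.0119 per stage (SE, 21 libraries, limma adjusted p = 1.01e-09). It was the second largest of 106 sites, of which 67% were called in either direction and 65.1% as rising, with a median slope over all sites of 0.012. A test of any difference between stages gave an adjusted p of 1.3e-09, where 97.2% of sites were called. E12.5 to P0 share one code in the column headers and the first set of indexes, and within these 15 libraries the slope was 0.167 ± 0.0139 (adjusted p = 1.69e-08). Between E11 and adult, which carry the second set of indexes but differ in header code, it was 0.13 ± 0.00503 (adjusted p = 6.74e-06), and there stage and code cannot be told apart.

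Gm75 was near full protection at every cortex stage. Its means were 0.869 ± 0.03 at E11, 0.921 ± 0.0149 at E12.5, 0.932 ± 0.0106 at E14, 0.939 ± 0.0126 at E15.5, 0.936 ± 0.0342 at E17, 0.94 ± 0.0364 at P0 and 0.975 ± 0.0143 in the adult (SD, n = 3 libraries each). The slope was 0.0129 ± 0.00331 per stage (limma adjusted p = 0.00303), close to the median of all sites. It rested on the ends of the series: within E12.5 to P0 it was 0.00421 ± 0.00363 (adjusted p = 0.367). With 3′ ends alone the adjusted p was 0.255, and with scores scaled to the upper quartile of each library it was 0.117.

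Between birth and adulthood Um14 was higher in the adult in each of the 4 brain regions, by unequal amounts. The 12 adult libraries scored from 0.861 to 0.948 with a median of 0.913, and the 12 P0 libraries from 0.551 to 0.825 with a median of 0.744, so the ages did not overlap. How many other sites separate in this way was not counted. In hippocampus the mean went from 0.65 ± 0.0121 to 0.939 ± 0.0112, a difference of 0.289. In cortex the difference was 0.252. In cerebellum the mean was 0.787 ± 0.0417 at P0 and 0.901 ± 0.0148 in the adult, and in olfactory bulb 0.792 ± 0.04 and 0.883 ± 0.0216, differences of 0.114 and 0.0916 (SD, n = 3 libraries each).

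With 1 mean per sample and the region as block, the mean adult difference of Um14 was 0.187 ± 0.0579 and missed the threshold (limma adjusted p = 0.0542, where 2.83% of 106 sites were called). It passed without the region block (adjusted p = 0.0432) and with the libraries as units (1.05e-05). The size of the difference varied between regions (limma interaction of region and age, 24 libraries, adjusted p = 0.0102, where 67.9% of sites were called), also among the 3 regions without cortex (0.00153). P0 and adult libraries carry different header codes in every region, so age and code cannot be told apart here.

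For Gm75 the mean adult minus P0 difference over the regions was -0.00312 (limma adjusted p = 0.99). The adult minus P0 differences were 0.0351 in cortex and 0.0507 in hippocampus, but -0.0722 in cerebellum and -0.0261 in olfactory bulb, and they differed between regions (adjusted p = 0.028), though not past the threshold with 2 neighbours on each side (0.0712) or with 5′ ends alone (0.112). The adult cerebellum libraries spread from 0.795 to 0.946, more widely than any other sample. The shape of the read-end profile moved with these values. The score of position 12, a G in the Um14 window that is no known site, averaged 0.37 in adult cortex, 0.447 in adult hippocampus, 0.459 in P0 cerebellum and 0.49 in P0 olfactory bulb, where Gm75 averaged 0.954 to 0.975. It averaged 0.697 to 0.741 in the other 4 samples of P0 and adult brain, where Gm75 averaged 0.882 to 0.94. The part of this profile in the Gm75 differences was not tested.

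Regions of the same age were also compared. In the adult, Um14 means spanned 0.0552 from olfactory bulb to hippocampus and did not differ past the threshold (limma adjusted p = 0.103, where 48.1% of sites were called). The libraries of hippocampus and olfactory bulb did not overlap, but these are the highest and lowest of the 4 regions. How many other sites separate in this way was not counted. At P0 they spanned 0.142 and differed between regions (adjusted p = 0.0376, where 82.1% of sites were called), with cerebellum and olfactory bulb above hippocampus in every library. Leaving out any 1 of 8 of the 12 P0 libraries put that adjusted p between 0.0615 and 0.0756, but among the 3 regions that share a header code it was 0.00991. Hippocampus was thus the lowest of these 3 regions at P0 and the highest of the 4 in the adult. At each age the regions with the lower position 12 scores had the higher Um14 means. These were cerebellum and olfactory bulb at P0 (0.459 and 0.49) and cortex and hippocampus in the adult (0.37 and 0.447). With position 12 left out of the neighbours, the Um14 means kept their order at each age. At P0 they were 0.674 in hippocampus, 0.694 in cortex, 0.797 in cerebellum and 0.802 in olfactory bulb. In the adult they were 0.891 in olfactory bulb, 0.908 in cerebellum, 0.922 in cortex and 0.942 in hippocampus. The limma interaction of region and age then had an adjusted p of 0.0132, and 0.00204 without cortex. The part of the rest of the read-end profile in these Um14 differences was not tested. Gm75 means spanned 0.0932 in the adult (adjusted p = 0.0763) and 0.0405 at P0 (0.242). Among the 3 P0 regions that share a header code, Gm75 differed when the library index was a block in the fit (0.0163) but not without it (0.105).

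Mouse embryonic stem cells stood between the embryonic stages at Um14. Their libraries scored 0.311, 0.386 and 0.407, all above the 3 of E11 cortex, and the difference was 0.232 ± 0.0345 (limma adjusted p = 0.00683, where 25.5% of sites were called). This difference depended on the far neighbours: with 2 neighbours on each side the stem cell score was 0.00157, the E11 score was 0 and the adjusted p was 0.891. In the stem cells the position 6 nucleotides upstream of Um14 carried 4.53 times the weighted neighbour mean, against 1.98 times in E11 cortex. Gm75 scored 0.915 ± 0.0124 in the stem cells and 0.869 ± 0.03 in E11 cortex (adjusted p = 0.0892).

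**Figure D3:**
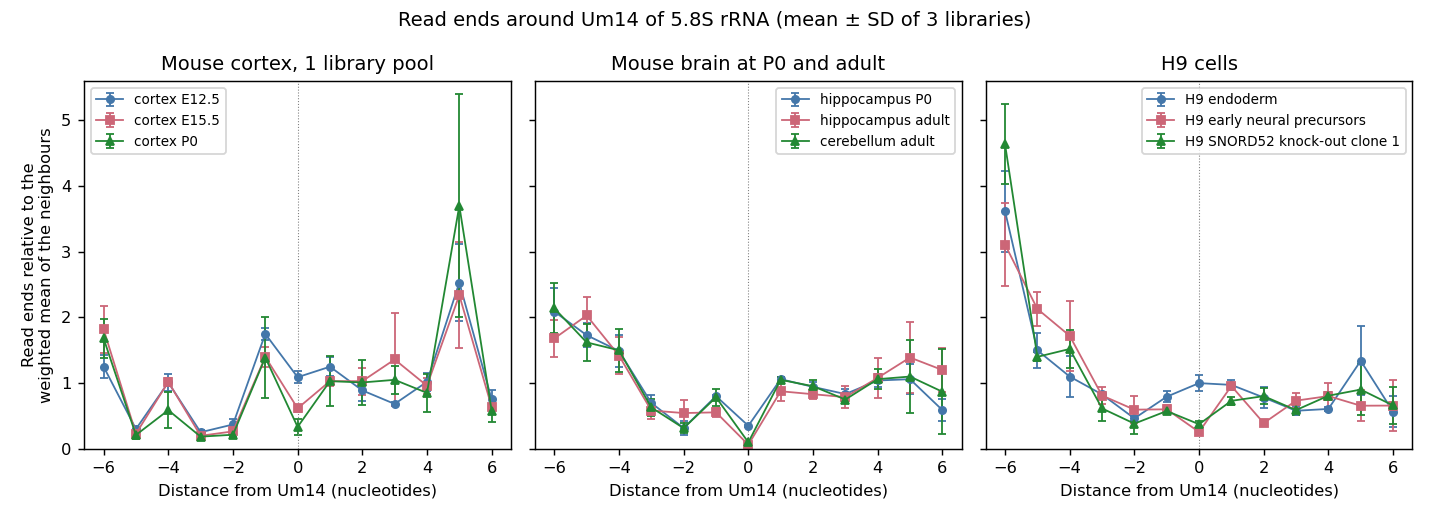
Read ends at each position from 6 nucleotides before to 6 after Um14 (x axis), relative to the weighted mean of the 12 neighbours (y axis), as mean ± SD of 3 libraries. The value at distance 0 falls from 1.09 at E12.5 to 0.333 at P0 in cortex, from 0.35 to 0.0615 in hippocampus between P0 and adult, and is 0.256 in H9 early neural precursors against 1 in H9 endoderm; the neighbours are uneven in every sample.

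In human cells, Um14 separated the neural derivatives of H9 from the other lineages. The 6 undifferentiated H9 libraries scored from 0.129 to 0.532 with a median of 0.241 and a mean of 0.264 ± 0.148. Without the highest of them the mean was 0.211 ± 0.0756 (SD, n = 5). HUES4 libraries scored 0.295, 0.369 and 0.386, and KOLF2 libraries 0, 0.065 and 0.13, so that KOLF2 lay below all HUES4 libraries. The 3 lines did not differ past the threshold (limma, 12 libraries, adjusted p = 0.0657, where 29.5% of 105 sites were called). They did with 5′ ends alone (0.00401), where 72.4% of sites were called and all KOLF2 libraries scored 0. Each undifferentiated line has its own header code, so line and code cannot be told apart. With 2 neighbours on each side the means were 0.139 in H9, 0.0407 in HUES4 and 0 in KOLF2 (0.34), and HUES4 and KOLF2 libraries overlapped. In HUES4 the position 6 nucleotides upstream of Um14 carried 4.27 times the weighted neighbour mean. The H9 libraries include both sets of indexes, whose means were 0.243 ± 0.0803 and 0.286 ± 0.216 (limma adjusted p = 0.969, where 0 of 105 sites were called and 8 had an unadjusted p below 0.05).

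**Figure D4:**
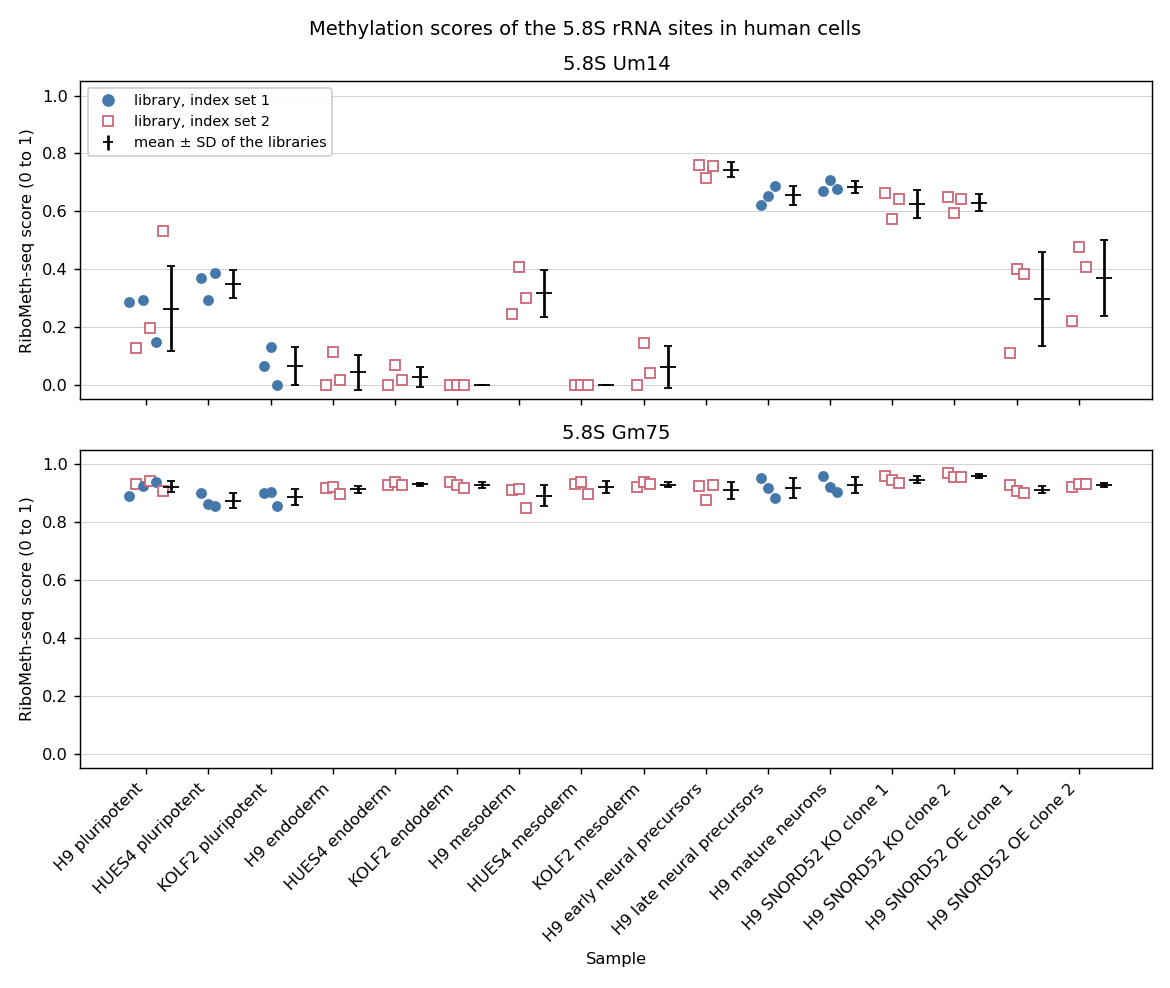
RiboMeth-seq score (y axis, 0 to 1) of Um14 (top) and Gm75 (bottom) in every human library, by sample, drawn as for mouse; KO and OE stand for SNORD52 knock-out and overexpression. At Um14 the 9 neural libraries (0.622 to 0.761) and the 6 knock-out libraries (0.572 to 0.663) lie above all other human libraries, and all Gm75 libraries lie between 0.849 and 0.969.

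Neural induction was followed in H9 through 3 stages. Um14 rose in early neural precursors, whose libraries scored 0.714, 0.757 and 0.761. Late neural precursors scored 0.622, 0.654 and 0.689, and mature neurons 0.669, 0.678 and 0.709. All 9 libraries lay above the highest undifferentiated H9 library. Early precursors exceeded undifferentiated H9 by 0.48 ± 0.0659 (SE, 15 libraries in the fit, limma adjusted p = 4.28e-05). This was the largest difference of 105 sites, of which 32.4% were called and 21% as higher.

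After early induction no further difference passed the test at Um14. Late minus early precursors was -0.0888 (limma adjusted p = 0.387, where 17.1% of sites were called), and mature neurons minus late precursors was 0.0302 (0.99, where 0% of sites were called by limma, 1 had an unadjusted p below 0.05 and edgeR called 0). Mature neurons exceeded undifferentiated H9 by 0.421 ± 0.0659 (adjusted p = 9.93e-05, where 42.9% of sites were called). The 3 stages carry other header codes than undifferentiated H9, so stage and code cannot be told apart. Early and late precursors also differ from each other in header code and index set, so the same holds between them. With H9 libraries of the matching set of indexes alone, the differences were 0.458 for early precursors and 0.442 for mature neurons. For comparison across species, with no test, human mature neurons at 0.685 ± 0.0209 lay at the level of mouse P0 cortex and below adult cortex.

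Gm75 showed no called difference along the neural series. Its means were 0.923 ± 0.0196 in undifferentiated H9 (SD, n = 6), and 0.91 ± 0.0303, 0.917 ± 0.0352 and 0.928 ± 0.0285 in the 3 neural stages (n = 3 each). The adjusted p-values against H9 were 0.715 for early precursors and 0.829 for mature neurons. The 2 kinds of read end went apart: from early to late precursors the score from 5′ ends alone rose by 0.121 (adjusted p = 1.57e-07), while the difference from 3′ ends alone was -0.0787 (0.26). The share of 5′ ends among the read ends at Gm75 was 81.4% in early and 7.81% in late precursors and 10.3% in mature neurons. Over all libraries this share had a median of 9.46% with the first set of indexes, which late precursors and neurons carry, and 48.1% with the second.

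Endoderm had the lowest mean Um14 score of the human groups, at 0.0239 over the lines against 0.126 in mesoderm. This order rested on H9. In HUES4 the mesoderm mean of 0 was below that of endoderm, and in KOLF2 the libraries of both overlapped. The 9 endoderm libraries scored from 0 to 0.113 with a median of 0, and sample means were 0.0433 in H9, 0.0284 in HUES4 and 0 in KOLF2. All 3 lines were below their undifferentiated cells, with differences of -0.221, -0.321 and -0.0649. With 2 neighbours on each side endoderm scored 0 in every line, against 0.139 in undifferentiated H9, 0.0407 in HUES4 and 0 in KOLF2. KOLF2 also scored 0 both before differentiation and as endoderm with 5′ ends alone. The group difference of -0.202 ± 0.103 (SE, 9 samples in the fit, line as block) did not pass the test (limma adjusted p = 0.135, where 47.6% of sites were called), nor did the difference between lines (interaction of line and group, 0.348, where 0.952% were called; 0.036 with 5′ ends alone). The scores at 0 are a floor, and with negative values kept the endoderm means were -0.000272, -0.029 and -0.0765. All endoderm libraries share a header code that no undifferentiated library carries, so group and code cannot be told apart.

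Mesoderm differed between the lines at Um14 with the 6 neighbours of the score, but not with the nearest 2. H9 mesoderm libraries scored 0.246, 0.3 and 0.406, HUES4 mesoderm libraries were all at 0, and KOLF2 mesoderm libraries scored 0, 0.0424 and 0.144. The group difference from undifferentiated cells was -0.0998 (limma adjusted p = 0.417, where 52.4% of sites were called) and from endoderm 0.103 (0.764, where 2.86% were called). Mesoderm against undifferentiated cells differed between lines (interaction of line and group, 21 libraries, adjusted p = 0.0233, where 18.1% of sites were called), at 0.0531 in H9, -0.35 in HUES4 and -0.00272 in KOLF2. With 2 neighbours on each side mesoderm scored 0.00679 in H9 and 0 in HUES4 and KOLF2, and the interaction had an adjusted p of 0.703. The position 6 nucleotides upstream of Um14 carried 2.85 times the neighbour mean in H9 mesoderm, 3.17 times in HUES4 and 2.78 times in KOLF2 mesoderm. H9 mesoderm has another header code than HUES4 and KOLF2 mesoderm, so line and code cannot be told apart. No mesoderm library shares a code with undifferentiated cells either.

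Gm75 was between 0.892 and 0.931 in the 6 differentiated germ layer samples. Endoderm exceeded undifferentiated cells by 0.0295 (limma adjusted p = 0.156) and mesoderm by 0.0202 (0.298), and mesoderm minus endoderm was -0.00932 (0.908). The first 2 differences came from HUES4 and KOLF2, whose undifferentiated cells had the lowest means of the human samples at 0.874 ± 0.0251 and 0.887 ± 0.027. In H9 the differences were -0.01 and -0.0312. Without H9 the adjusted p-values were 0.00175 for endoderm and 0.00298 for mesoderm. In HUES4 and KOLF2, however, the undifferentiated libraries carry the first set of indexes and the germ layer libraries the second, under other header codes. Germ layer, index set and code therefore cannot be told apart in these 2 lines.

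The SNORD52 clones asked whether editing a snoRNA that guides neither site moved them. At 28S Um3904, the target of SNORD52, the knock-out clones scored 0.0302 and 0.0158 and the overexpression clones 0.893 and 0.895, against 0.598 to 0.825 in the 3 unedited lines. Um14 rose in the knock-out clones. Clone 1 libraries scored 0.572, 0.643 and 0.663 and clone 2 libraries 0.595, 0.644 and 0.651, all above the 12 unedited libraries, which reached 0.532. The overexpression libraries scored from 0.111 to 0.478, within the unedited range.

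The knock-out clones exceeded the unedited lines at Um14 by 0.402 ± 0.129 (SE, 7 samples in the fit, limma adjusted p = 0.0277, where 36.2% of sites were called and 18.1% as higher). The adjusted p was between 0.066 and 0.214 when 1 of the 2 knock-out clones was left out, or 1 of the 2 overexpression clones, which share the fit's estimate of spread. On the arcsine scale it was 0.0643. Overexpression minus unedited was 0.107 ± 0.129 (0.496, where 49.5% of sites were called), and knock-out minus overexpression was 0.295 ± 0.142 (0.0949, where 50.5% were called). The 2 knock-out lines share a header code that no other human sample carries, so genotype and code cannot be told apart. The mouse stem cell libraries carry the same code. The position 6 nucleotides upstream of Um14 carried 4.64 and 4.16 times the neighbour mean in the knock-out clones and 4.53 times in the mouse stem cells. In the unedited lines it carried 1.5 times in H9, 4.27 times in HUES4 and 1.94 times in KOLF2. With 2 neighbours on each side the knock-out means were 0.401 and 0.411, against 0.139 in H9, 0.0407 in HUES4 and 0 in KOLF2.

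Gm75 was also highest in the knock-out clones, at 0.947 ± 0.0117 and 0.96 ± 0.00777 (SD, n = 3 libraries each). It exceeded the unedited lines by 0.0589 ± 0.0152 (limma adjusted p = 0.00776). The knock-out libraries, from 0.936 to 0.969, overlapped the unedited ones, which reached 0.941. The call was lost with the H9 libraries of the second set of indexes alone (difference 0.0257, adjusted p = 0.0684), with 5′ ends alone (0.101) and without clone 2 (0.1). Overexpression minus unedited was 0.026 (0.165) and knock-out minus overexpression 0.033 (0.11).

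Other catalogued sites were ranked by the correlation of their sample means with each 5.8S site, as a description over samples of which some share a header code or an index set and which differ in depth. For Um14 over the 14 mouse samples the closest were 18S Um354 (r = 0.927), 18S Cm1272 (0.885) and 28S Am4560 (0.873), where the median over 104 sites was -0.00348. Over the 16 human samples they were 18S Um799 (0.886), 28S Um4276 (0.852) and 28S Um4468 (0.842), with a median of 0.446 over 105 sites. For Gm75 they were 28S Cm2352 (0.899), 18S Gm436 (0.89) and 28S Gm4588 (0.862) in mouse, with a median of 0.642, and 28S Am3739 (0.696), 28S Am4560 (0.691) and 18S Cm1272 (0.666) in human, with a median of 0.00204. A high correlation here does not mean a change of like size. The human sites closest to Um14 ran from 0.899 to 0.972 (18S Um799), 0.761 to 0.976 (28S Um4276) and 0.873 to 0.956 (28S Um4468), against 0 to 0.744 at Um14. Those closest to Gm75 in human ran from 0.95 to 0.982 (28S Am3739), 0.642 to 0.934 (28S Am4560) and 0.309 to 0.687 (18S Cm1272). No site was among the closest 3 of Um14 in both species. Um14 and Gm75 correlated with each other at 0.479 in mouse and 0.211 in human.

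The rest of 5.8S rRNA gives the background of the score. Over the 140 other human positions scored, the mean was 0.181 and the median 0.137, and over 142 mouse positions 0.166 and 0.128. At 138 of the human and 141 of the mouse positions, even the highest sample mean lay below the lowest sample mean of Gm75. The exceptions lay near the 3′ end: positions 134 and 135 averaged 0.841 and 0.819 in human, and position 135 averaged 0.742 in mouse. The mean of Um14 did not stand clear of this background. It was 0.321 over the human and 0.583 over the mouse samples, while position 12, no known site, averaged 0.388 and 0.616. In each species 8 of the other positions averaged at least 0.5 (5.71% in human and 5.63% in mouse). Um14 differed from them in its range. No other position had a wider range over the samples than Um14, the widest being 0.738 at position 133 in human and 0.784 at position 23 in mouse.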

How the data were processed

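RiboMeth-seq read ends were analysed in 30 samples with 93 libraries. For each library and rRNA position the authors deposited raw counts of 5′ and of 3′ ends and the total of both, not scaled between libraries. The deposited methylation value, a percentage per the file headers, is a fraction with a maximum of 1. It equals 1 minus the read-end count over the weighted mean of 6 neighbours on each side (weights 1 to 0.5), with negative values set to 0, and recomputation differed by at most 5e-13 over 9951 values. For the mapping program and any genome build the sources used here give no name. In 6 human files 5.8S rRNA lacks its first base, and positions were moved by 1.

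The 107 sites were written down from general knowledge and placed by their base, in mouse by alignment with MAFFT 7.526. The 2 members, the site lists and the tests were chosen with earlier results of these data known. Sites with a mean score of at least 0.2 and neighbours of at least 50 read ends were tested, 105 in human and 106 in mouse. Scores were fitted with limma 3.58.1 (R 4.3.3, trended variance), with Benjamini-Hochberg adjustment at 0.05 over all tested sites. Libraries were the units, except for germ layers (cell line as block), SNORD52 clones and P0 against adult (region as block), which used 1 mean per sample. Alternatives included edgeR 4.0.16 on the counts with the neighbours as offset. The scripts were tested on simulated data. Named sites were the 2 members and, per member and species, the 3 sites outside 5.8S with the highest correlation.

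Headers give each library an index, and the 3 libraries of a sample carry 1 of 2 sets of 3. Same-index libraries of different samples deviated together from their sample means: all 46 mouse and 76 human sample pairs correlated over 0.1, the lowest at 0.206. At Gm75 the index ACAATG held the lowest library in 10 of 10 samples of its set and TACTGT in 16 of 21. At Um14 CGCAAT held the lowest in 17 of 21. The SD between the libraries of a sample thus also holds differences between indexes, and the main fits had no block for the index. Headers also carry a code shared by libraries, with no stated meaning. Samples of the same brain region at P0 and adult did not deviate together over the sites (median r = -0.262, 1 of 4 over 0.1). For samples of the same cell line the median r was -0.145 between undifferentiated cells and endoderm. It was 0.443 between undifferentiated cells and mesoderm and -0.00559 between endoderm and mesoderm. Region and line stayed as blocks because each was sampled in every group compared.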

Additional observations from a re-analysis of the deposited data

Results flagged for a closer look

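Some differences were not alike in the groups they were measured in. For 5.8S Um14 the change from undifferentiated cells to mesoderm differed between the cell lines H9, HUES4 and KOLF2 (limma interaction, adjusted p = 0.0233), and so did mesoderm against endoderm (0.0369, where 2.86% of 105 sites were called). H9 mesoderm exceeded H9 endoderm by 0.274, while the same difference was -0.0284 in HUES4 and 0.0622 in KOLF2. Both Um14 calls were lost with 2 neighbours on each side (0.703 and 0.978), where mesoderm scored 0.00679 in H9 and endoderm 0, and the second also with negative scores kept (0.448) and with position 12 left out of the neighbours (0.0753). For Gm75 the change from undifferentiated cells to mesoderm also differed between the lines (adjusted p = 0.0464), at -0.0312 in H9, 0.0485 in HUES4 and 0.0432 in KOLF2. Endoderm against undifferentiated cells was tested in the same way and missed the threshold, at 0.348 for Um14 and 0.126 for Gm75, but passed for Um14 with 5′ ends alone (0.036) and for Gm75 with the library index as a block (0.027). The Gm75 mesoderm call was lost with 5′ ends alone (0.105). Undifferentiated HUES4 and KOLF2 libraries carry only the first set of indexes, those of H9 both, and all germ layer libraries the second. Line, index set and header code therefore cannot be told apart in the tests against undifferentiated cells.

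The change from P0 to adult differed between brain regions for Um14 (adjusted p = 0.0102) and for Gm75 (0.028). Among the 3 regions without cortex, whose libraries all carry the second set of indexes, the values were 0.00153 and 0.0399. The Um14 calls held with 2 neighbours and with 5′ ends alone, while those of Gm75 were lost (0.0712 and 0.112 over 4 regions, 0.098 and 0.145 over 3). For Um14 all 4 regions moved up, and for Gm75 cortex and hippocampus were higher and cerebellum and olfactory bulb lower in the adult. These tests used libraries as units and were added after the data were seen.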

How the results depend on the processing

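The 32 results were each repeated under other settings, 670 repeats in all, of which 579 kept direction and side of the threshold, 27 lost the call, 37 gained one and 27 turned direction, none of those 27 with a call. The rise of Um14 along the cortex and its higher level in early neural precursors and in mature neurons kept their calls in every repeat. Um14 cannot be scored from 3′ ends, which do not occur there. The cause of the changes below was not tested.

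For Um14, P0 against adult gained a call with 2 neighbours on each side (0.246), 5′ ends only (0.198), the arcsine scale (0.247), edgeR (1.59, a log2 difference, as are all edgeR values here), no region block and libraries as units (0.187 each) and libraries without cortex (0.165). The range over adult regions gained one with 5′ ends only (0.0548) and edgeR (0.922), and the range over P0 regions lost it with upper-quartile scaling (0.144). Mouse stem cells against E11 lost it with 2 neighbours (0.00157). Mesoderm against undifferentiated cells turned with H9 of index set 2 (0.0318), and late against early precursors with 2 neighbours (0.0152). The knock-out lost its call on the arcsine scale (0.458), overexpression turned with 2 neighbours (-0.0388) and 5′ ends only (-0.00457), and knock-out against overexpression gained a call with 2 neighbours (0.385), 5′ ends only (0.427), edgeR (0.866), no minimum score (0.295) and the clone number as replicate block (0.295).

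For Gm75, the cortex slope lost its call with 3′ ends only (0.0109), upper-quartile scaling (0.0055) and within E12.5 to P0 (0.00421, with or without the library index as a block), and the test of any stage with the same settings (0.165, 0.064 and 0.019) and without E11 (0.0541). P0 against adult turned with 3′ ends (0.0184), arcsine (0.00382), edgeR (0.157) and upper-quartile scaling (0.00118). Calls were gained for adult regions with arcsine (0.186) and edgeR (2.28), for P0 regions with 5′ ends (0.0514) and without cortex with the library index as a block (0.0405), and with upper-quartile scaling for endoderm (0.0573), mesoderm (0.0482) and overexpression (0.0543). With H9 of index set 2 endoderm (-0.0149), mesoderm (-0.0361) and overexpression (-0.00731) turned and the knock-out lost its call (0.0257), as it did with 5′ ends (0.0261). In the neural series 5′ ends gave calls for early precursors (-0.0586), late against early (0.121) and neurons against H9 (0.0614) and turned neurons against late precursors (-0.00117). 3′ ends turned the first 3 of these (0.0336, -0.0787 and -0.0313), and upper-quartile scaling turned late against early (-0.00342) and neurons against H9 (-0.00617). Knock-out against overexpression gained a call with the clone number as replicate block (0.033), but same-numbered clones did not deviate together (r = -0.0733), and the number pairs nothing.

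With 1 replicate or region left out at a time, the results that changed ranged as follows. For Um14, P0 against adult went from 0.152 (without hippocampus, with a call) to 0.218, the adult range from 0.0441 to 0.0657, the P0 range from 0.136 to 0.186, mesoderm against undifferentiated cells from -0.176 to 0.0252 (without HUES4), the knock-out from 0.321 to 0.463 and knock-out against overexpression from 0.259 to 0.33. For Gm75, P0 against adult went from -0.021 to 0.0199 (without cerebellum, and 0.00453 without olfactory bulb), the adult range from 0.0497 to 0.125, stem cells against E11 from 0.0306 to 0.0604, endoderm from 0.0153 to 0.0492 and mesoderm from 0.00597 to 0.0458 (both without H9 at the upper end). Early precursors went from -0.0229 to 0.00452, late against early from -0.0105 to 0.0247 (and -0.0103), neurons against late precursors from -0.00669 to 0.0285 (and -0.00482) and neurons against H9 from -0.0106 to 0.0172 (and -0.00148). The knock-out went from 0.0485 to 0.0731, overexpression from 0.0155 to 0.0401 and knock-out against overexpression from 0.0248 to 0.0411.

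Where it was fitted to all samples of a comparison of libraries, the replicate block by library index changed no call, with a cortex slope of 0.144 for Um14 and 0.0129 for Gm75. For the test of any stage and the P0 regions it could be fitted only within samples of 1 index set, because the other indexes belong to other stages or regions. It cannot enter fits on 1 mean per sample. In interactions of cell line and germ layer, the block moved the number of called sites from 19 to 29 for mesoderm, from 1 to 12 for endoderm and from 3 to 18 for mesoderm against endoderm. Counting error was at least the SD between libraries in 3 of 30 samples at each site, and Gm75 had as few as 14 read ends in a library.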
